A study of Mus musculus with 6 samples.

Results

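The retinoid (vitamin A) transport and signaling genes Rbp4, Rbp2, Aldh1a1, Aldh1a3, Dhrs3, Rara, Rarb, Rarg and Rxra were followed in colonic crypts of mice given the EZH2 inhibitor GSK503. They are 9 of the 18049 genes with a row in the deposited table, matched by gene symbol, and all 9 were found. The genes were selected from earlier results of this same comparison, so their differences between GSK503-treated mice and controls are given as a description without a test. Only genes outside this set carry a p-value.

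The RNA-Seq libraries were made from total RNA of colonic crypts, 1 per mouse, from 3 controls and 3 GSK503-treated mice. All 6 belonged to the same C57BL/6J model of Lynch syndrome, which carries Villin-Cre, active in the intestinal epithelium, and a humanized TgfβRII knock-in with a microsatellite repeat. All were fed a Western-style diet from 8 weeks of age. Treated mice received GSK503 at 200 μg/kg by tail vein injection and control mice received the vehicle, 20% captisol in PBS, over 9 weeks of treatment. The comparison asked how inhibition of EZH2, the enzyme that places the repressive mark H3K27me3 on histone H3, changed gene expression in the crypt epithelium.

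Retinol circulates bound to retinol binding proteins, is oxidized first to retinaldehyde and then to retinoic acid, and retinoic acid acts in the nucleus on retinoic acid receptors (RARs) paired with retinoid X receptors (RXRs). The pair binds DNA at direct repeats of a short half-site, with corepressors when no ligand is present and coactivators when it is. In the intestine this pathway is known for the handling of dietary vitamin A and for its effects on epithelial differentiation and mucosal immunity.

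The sequences below show where this half-site repeat was found near the starts of retinoid genes, because Rarb and Cyp26a1 are textbook targets of the receptors. Windows of 250 bases before to 50 after each annotated start were read from RefSeq (GRCm38.p6), and 8 of the 9 genes, all but Aldh1a3, had at least 1 window. The half-site, spelled as AGGTCA or as GGTTCA or as AGTTCA or as GGGTCA, was searched on both strands as a direct repeat with a spacer of 1, 2 or 5 bases. Of the 9 genes, only Rarb held such a repeat, with a spacer of 5, a pattern present in 32 of all 32851 windows (0.0974%). Among the other pathway genes, Cyp26a1, which encodes an enzyme that degrades retinoic acid, held a repeat with a spacer of 5, and Bco1, which encodes the enzyme that cleaves β-carotene, held 1 with a spacer of 1, found in 0.222% of windows. A spacer of 2 occurred in 0.268% of windows and in none of the pathway genes' windows. The repeats are in capitals and read on the strand of the gene, so those of Cyp26a1 and Bco1 appear as the reverse complement of the half-site.
Rarb, chr14:16575507-16575536, minus strand: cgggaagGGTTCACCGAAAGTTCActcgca
Cyp26a1, chr19:37697769-37697798, plus strand: ttaaagaTGAACTTTGGGTGAACTaatttg
Bco1, chr8:117095800-117095829, plus strand: cttgggaacTGACCTTTGACCTaacacaca
The Rarb repeat lies from -53 to -37 relative to the RefSeq start, in bases that GENCODE annotates as exon. A match of letters describes the sequence and does not show that a receptor binds there.

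Rbp4, the member with the largest difference between the groups, has a CpG-poor window and a CpG-rich window, and both are shown because CpG-dense starts are, as background, the kind of sequence on which EZH2 and its mark are often found. The upstream window held 5 CpG and the window of a second RefSeq start, inside the first intron of the transcript that begins farthest upstream, held 40. At least 20 CpG were present in 26.5% of all windows and in 5 of the 17 windows of these genes. Parts of both windows outside annotated exons are printed from GRCm38.p6 on the minus strand, with each CpG in capitals. For the upstream window these are the 120 bases next to the start, cut from a longer exon-free stretch (-226 to -1), and for the second window all 82 exon-free bases, so the CpG counts of the whole windows, not of the printed parts, are the ones to compare.
Rbp4 upstream of the gene, chr19:38125322-38125441: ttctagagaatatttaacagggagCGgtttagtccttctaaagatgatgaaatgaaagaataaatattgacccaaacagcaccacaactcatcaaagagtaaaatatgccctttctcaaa
Rbp4 first intron, chr19:38124873-38124954: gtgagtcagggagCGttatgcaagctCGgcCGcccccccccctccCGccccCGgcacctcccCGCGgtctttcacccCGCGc
Histone marks were not analysed here, so these sequences carry no measurement.

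The value of a gene is its estimated count scaled by the authors' TMM method to a common library size, called TMM-scaled CPM here. Libraries held an estimated 108162849 to 135085026 counts, so 3 counts correspond to a value of 0.0228 to 0.0271. The epithelial marker genes Krt8 (4505 to 6090 over all 6 mice) and Epcam (1802 to 2032) were abundant in every mouse. Ezh2, the gene of the drug's target, was at 46.7, 37.4 and 46.5 across controls against 36.6, 35.2 and 36.3 across treated mice. The Y-linked genes Uty, Ddx3y and Kdm5d were at 42.5 or more in every control mouse and at 1.08 or less in every treated mouse, whereas Xist was at 0.936 or less in every control mouse and at 825 or more in every treated mouse. Sex and treatment therefore cannot be told apart in any result given here.

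Rbp4 (ENSMUSG00000024990, GRCm39 chr19:38105066-38113754, minus strand, 6 exons; gene positions are on GRCm39 throughout) encodes the serum retinol carrier, known mainly from liver and fat. Its value was 5.58, 5.89 and 4.84 across controls 1 to 3 against 17.2, 19.1 and 22.2 across GSK503-treated mice 1 to 3. All 3 treated mice lay above all 3 controls, and the lowest treated mouse had 2028 estimated counts against at most 733 in a control mouse. The group means were 5.44 ± 0.539 and 19.5 ± 2.54 (SD, n = 3 mice each), and the log2FC was 1.82 (standard error 0.14) on the log2(value + 0.1) scale, or 3.53-fold. Ffar4, which overlaps Rbp4 on the opposite strand, had means of 7.0 and 9.82, and whether the counting used strand is not given in the sources used here. Of 5 hepatocyte markers, 3 were in the table, with a summed value of 18.2 to 28.3 in controls against 17.7 to 19.1 in treated mice, most of it from Tat, while Alb and Apoa2 stayed at or below 0.956 and 1.2 in every mouse. The summed value of the 4 adipocyte genes in the table ranged from 0.936 to 2.10 in controls against 0.112 to 2.80 in treated mice.

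Like Rbp4, the goblet cell genes were higher in treated mice. All 6 genes of that list (Clca1, Fcgbp, Tff3, Zg16, Agr2 and Spdef) had all 3 treated mice above all 3 controls, as did 9.84% of all genes tested. Their summed value ranged from 10122 to 18316 in controls against 31336 to 49874 in treated mice. None of the 6 was at 0 in any mouse. The ratio of Rbp4 to Spdef, a transcription factor of goblet cells, was 0.0700, 0.0652 and 0.0744 across controls against 0.150, 0.140 and 0.182 across treated mice. Ratios to Tff3, Agr2 and Zg16 also did not overlap between the groups and were higher after GSK503. By contrast, ratios to Clca1 and Fcgbp, the goblet genes with the highest values, overlapped. The part of goblet cell content in the Rbp4 difference was not tested, and in bulk crypts more cells of a type and more RNA per cell cannot be told apart.

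Rbp2 (ENSMUSG00000032454, chr9:98368121-98391834) encodes the cellular retinol carrier of absorptive intestinal cells. Its value was 1.07, 1.85 and 1.82 across controls against 3.74, 1.68 and 1.51 across treated mice. The groups overlapped, and GSK503-treated mouse 1 alone was above the controls. The log2FC was 0.45 (standard error 0.38), and without that mouse it was 0.05. Compared per kb of the canonical transcript, Rbp4 made up 63.7%, 60.1% and 57.8% of the summed Rbp4, Rbp2 and Rbp7 level across controls against 71.8%, 75.0% and 84.3% across treated mice.

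**Figure D1:**
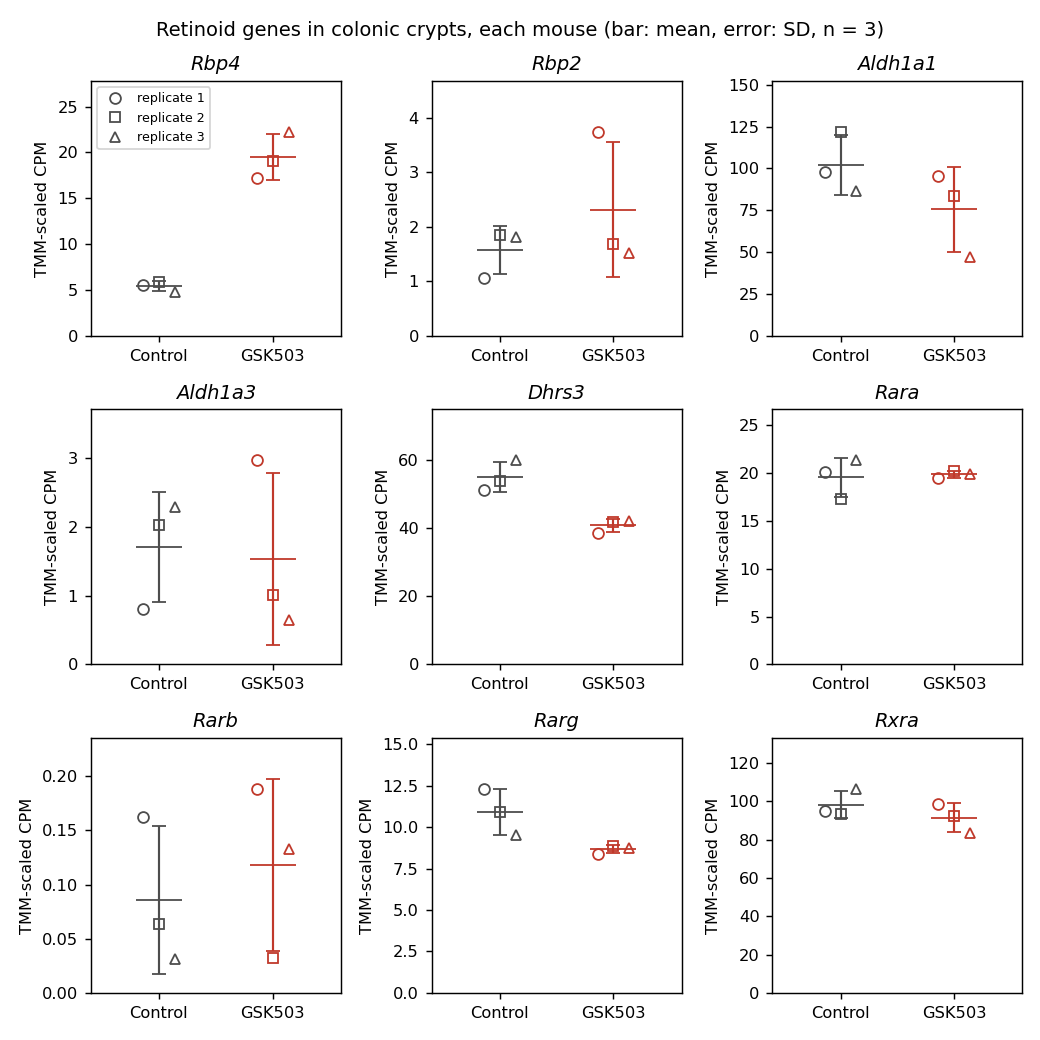
Each panel plots 1 gene, with the TMM-scaled CPM on an axis that starts at 0, a marker for each of the 3 control and 3 GSK503-treated mice by replicate number, a horizontal bar for the mean and an error bar for the SD. The Rbp4 values of the treated mice (17.2 to 22.2) lie above those of the controls (4.84 to 5.89), Dhrs3 and Rarg lie lower in all treated mice, and the other 6 genes overlap.

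Aldh1a1 (ENSMUSG00000053279, chr19:20469539-20622825) encodes a retinaldehyde dehydrogenase, one of the enzymes that make retinoic acid. Its value was 98.0, 122 and 86.2 across controls against 95.7, 83.4 and 47.4 across treated mice. GSK503-treated mouse 3 was the lowest, while the other two treated mice were within or just under the control range. The log2FC was -0.48 (standard error 0.23) with all mice and -0.18 without GSK503-treated mouse 3. That mouse also had the highest sums of fibroblast and smooth muscle genes, at 113 and 122. The other treated mice had 25.1 to 33.8 and 4.26 to 4.52, and controls had 60.2 to 77.1 and 20.9 to 90.1. Control mouse 2, with the highest Aldh1a1 value (122), had the highest control sums (77.1 and 90.1). The part of these cell types in the Aldh1a1 value was not tested. Aldh1a7, a close paralog with which reads could have been divided, had means of 8.25 and 7.11.

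Aldh1a3 (ENSMUSG00000015134, chr7:66040638-66077850, minus strand), which encodes an enzyme of the same step, was far lower. Its value was 0.799, 2.04 and 2.29 across controls against 2.97, 1.0 and 0.641 across treated mice. Both groups spanned about the same range, and the log2FC was -0.29 (standard error 0.55) and turned to 0.15 without GSK503-treated mouse 3. Per kb, Aldh1a1 made up 95.5% to 97.8% of the summed Aldh1a1, Aldh1a2 and Aldh1a3 level across controls against 92.9% to 96.1% across treated mice.

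Dhrs3 (ENSMUSG00000066026, chr4:144619245-144654779) encodes a short-chain reductase that turns retinaldehyde back into retinol, opposite to the direction of retinoic acid synthesis. Its value was 51.1, 53.8 and 59.8 across controls against 38.5, 41.8 and 41.9 across treated mice. The groups did not overlap, and all 3 treated mice were lower. The means were 54.9 ± 4.43 and 40.7 ± 1.90 (SD, n = 3 mice each), and the log2FC was -0.43 (standard error 0.085). Leaving out 1 mouse at a time kept the log2FC between -0.48 and -0.37. The ratio of Dhrs3 to Rdh10, whose enzyme works in the oxidizing direction, overlapped narrowly between the groups. It was 2.28, 2.09 and 2.37 across controls against 1.91, 1.97 and 2.10 across treated mice, with means of 2.25 ± 0.141 and 2.0 ± 0.0971 (SD, n = 3 mice each). The ratio of Dhrs3 to Rara did not overlap, at 2.55, 3.11 and 2.81 across controls against 1.98, 2.07 and 2.11 across treated mice.

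Among the receptors, Rara (ENSMUSG00000037992, chr11:98818612-98865768), encoding RARα, was at 20.1, 17.3 and 21.3 across controls against 19.5, 20.2 and 19.9 across treated mice. The treated values fell inside the control range, and the log2FC was 0.03 (standard error 0.11, 95% confidence interval -0.21 to 0.27), turning to -0.09 with library size alone as the scaling and to -0.06 without control mouse 2. Rarg (ENSMUSG00000001288, chr15:102143373-102165952, minus strand), encoding RARγ, was at 12.3, 10.9 and 9.50 across controls against 8.40, 8.87 and 8.74 across treated mice. All 3 treated mice were below the controls, although control mouse 3 lay close to them, and the log2FC was -0.32 (standard error 0.14). The ratio of Rarg to Rara was 0.613, 0.631 and 0.446 across controls against 0.432, 0.439 and 0.439 across treated mice, so control mouse 3 was nearly at the treated level.

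Rarb (ENSMUSG00000017491, chr14:5650540-6041094), encoding RARβ and holding the repeat printed above, was barely detected. Its value was 0.162, 0.0633 and 0.0315 across controls against 0.188, 0.0319 and 0.133 across treated mice, from 4 to 22.2 estimated counts per mouse. The groups overlapped, and a difference was not detectable at these counts and with this spread between mice. Rarb made up at most 0.618% of the summed RAR level per kb in any mouse, whereas Rara made up 56.2% to 64.6% across controls against 64.7% to 65.0% across treated mice. Top2b, which overlaps Rarb on the opposite strand, had means of 191 and 171, and the part of its reads in the Rarb value was not tested.

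Rxra (ENSMUSG00000015846, chr2:27566452-27653330), encoding RXRα, the common partner of the RARs, was at 95.1, 93.3 and 106 across controls against 98.4, 92.6 and 83.6 across treated mice. The groups overlapped, and the log2FC was -0.10 (standard error 0.087, 95% confidence interval -0.30 to 0.09). Rxrb, the other RXR gene analysed, had a log2FC of -0.04 (95% confidence interval -0.23 to 0.15, limma adjusted p = 0.892), and Rxra made up 52.2% to 58.9% of the 2 per kb across controls against 52.1% to 55.4% across treated mice.

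**Figure D2:**
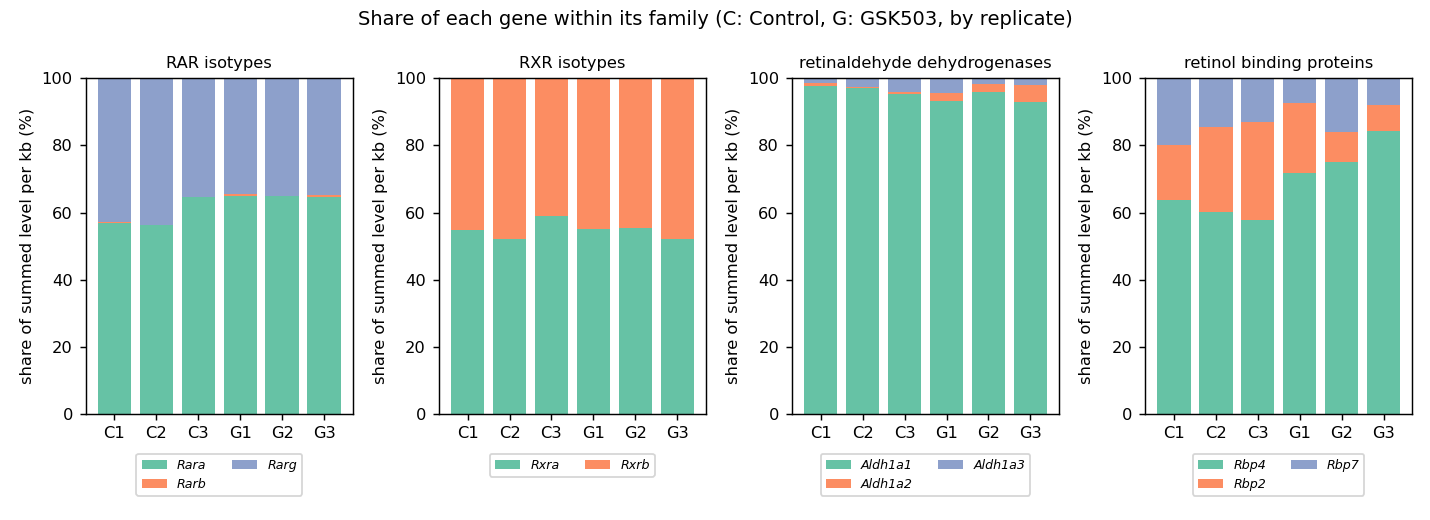
Stacked bars give, for each mouse (C1 to C3 control, G1 to G3 GSK503), the percentage that each gene takes of the summed level per kb of its family. The Rbp4 share of the treated mice (71.8% to 84.3%) lies above that of the controls (57.8% to 63.7%), while Rara and Rxra keep the larger share of their families throughout.

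By limma at an adjusted p below 0.05, 0.642% of the 16670 genes tested were called, 0.498% higher and 0.144% lower. Calls are not given for the 9 genes, which were selected from this comparison. Of the 9, treated mice lay wholly above the controls for 1 (Rbp4) and wholly below for 2 (Dhrs3 and Rarg). The shares of all genes tested were 9.84% and 9.22%, and the other 6 of the 9 overlapped. All 9 passed the filter on low values. Their median log2FC was -0.10, and that of all genes tested was -0.01. Because the genes were chosen with this contrast known, nothing is read from these counts.

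Ordered by level per kb of the canonical transcript, the control mice had Dhrs3 (20.0), Rxra (18.0) and Aldh1a1 (16.4) at the top, whose values overlapped between neighbours. Rara (5.86) and Rbp4 (5.80) came next and also overlapped. Rarg (4.01), Rbp2 (2.27), Aldh1a3 (0.424) and Rarb (0.0252) followed, each without overlap with its neighbour. In the treated mice Rbp4 (20.8) led this order, with its 3 values above those of Rxra (16.7). Dhrs3 (14.9) and Aldh1a1 (12.2) followed with overlapping values, then Rara (5.95), Rbp2 (3.32) and Rarg (3.19), of which the last 2 overlapped, and Aldh1a3 (0.382) and Rarb (0.0347) remained last.

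The other genes of the pathway were read from the same fit across all genes. Of 56 listed genes, 47 were in the table and 45 were tested, and 0 were called at an adjusted p below 0.05 by limma. At an unadjusted p below 0.05, 2 were higher and 8 were lower, or 22.2% of those tested against 13.3% of all genes tested, and the count of calls by limma-voom on recovered counts was also 0. Their median log2FC was -0.01. The genes with an unadjusted p below 0.05 that are named in the next paragraphs were picked after their values were seen, apart from those that were among the 3 most abundant of their list.

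Among 7 tested genes of carriers and uptake, all overlapped between the groups. Stra6l, which encodes a relative of the retinol binding protein receptor, had means of 31.9 and 32.4, Scarb1, encoding a carotenoid and lipoprotein receptor, 16.4 and 17.8, and Fabp5, encoding a fatty acid carrier that also binds retinoic acid, 9.17 and 9.64. Ttr, encoding transthyretin, the serum partner of retinol binding protein, was at 4.63 and 6.20 with a log2FC of 0.45 (limma adjusted p = 0.515). Crabp1 and Crabp2 were listed but had no row in the data.

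Of 6 genes of ester storage and carotenoid cleavage, 5 had a log2FC below 0 and none was called. Lrat, encoding the enzyme that esterifies retinol, was at 11.3, 10.4 and 9.96 across controls against 8.17, 7.68 and 7.68 across treated mice. The groups did not overlap, but the log2FC of -0.42 (standard error 0.13) had a limma adjusted p of 0.185. Isx, encoding an intestinal transcription factor that represses carotenoid uptake, had a limma adjusted p of 0.428 (log2FC -0.31), and Bco2 a log2FC of -0.24 (limma adjusted p = 0.453). Dgat1 had means of 22.5 and 24.4, and Bco1, which holds the repeat with a spacer of 1, had means of 1.61 and 1.29 (limma adjusted p = 0.714).

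Of 16 tested genes of retinol and retinal oxidation and reduction, 2 were wholly higher (12.5%) and 1 wholly lower (6.25%) in treated mice. These shares were near those of all genes tested (9.84% and 9.22%). Rdh11, encoding a retinal reductase, was at 45.4, 41.0 and 43.3 across controls against 55.3, 61.3 and 57.4 across treated mice. Its log2FC was 0.42 (standard error 0.079), and the limma adjusted p of 0.0505 just missed the threshold. It was called with a filter of at least 1 in place of 0.1 and with robust variance estimation. Aldh1a2, encoding another retinaldehyde dehydrogenase, was at 0.434, 0.136 and 0.244 across controls against 0.992, 0.805 and 1.16 across treated mice, which gave a log2FC of 1.61 ± 0.40 (standard error, with a limma adjusted p of 0.118). Rdh10 had means of 24.4 and 20.4 and a log2FC of -0.26 (limma adjusted p = 0.287). The most abundant genes of the list, Adh1, Adh5 and Rdh16, overlapped between the groups, with means of 693 and 626, 107 and 91.6, and 55.7 and 46.6. Of the genes that degrade retinoic acid, Cyp26b1 was low (0 to 0.225), reached 0.1 in fewer than 3 mice and was not tested. Cyp26a1 was listed but had no row in the data.

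Among the 9 tested RXR isotypes and coregulators, 6 had treated mice wholly below the controls and an unadjusted limma p below 0.05. Of all genes tested, 9.22% lay wholly below and 6.27% were lower at that p. None of the 9 was called. The list was chosen with earlier results of these data known, so these counts are a description. Ncor1, encoding a corepressor of unliganded receptors, was at 341, 341 and 418 across controls against 318, 283 and 308 across treated mice (log2FC -0.27, limma adjusted p = 0.27). Nrip1, encoding a corepressor of liganded receptors, had a log2FC of -0.36 (limma adjusted p = 0.168). Crebbp and Ep300, which encode histone acetyltransferases that act as coactivators, had log2FCs of -0.38 and -0.32 (limma adjusted p = 0.212 and 0.153). Ncoa1 and Ncoa2, also coactivator genes, had log2FCs of -0.37 and -0.23 (limma adjusted p = 0.172 and 0.275). The median log2FC of the list was -0.27, against -0.01 for all genes tested. These 6 genes have canonical transcripts of 7.38 to 10.8 kb. Among the 1064 tested genes with a transcript of at least 7 kb and a mean value of at least 10, the median log2FC was -0.11 and 24.3% had treated mice wholly below the controls, whereas among the 1851 such genes under 2 kb the median was 0.08 and the share 3.35%. The part of transcript length in the coregulator values was not tested.

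The 7 tested retinoic acid target genes all overlapped between the groups. Cdx1, encoding an intestinal homeobox factor, was at 199, 213 and 195 across controls against 207, 212 and 201 across treated mice, a log2FC of 0.03 (95% confidence interval -0.12 to 0.19, limma adjusted p = 0.888). Tgm2, encoding a transglutaminase, had a limma adjusted p of 0.952 (log2FC 0.04), and Btg2, an antiproliferative gene, of 0.634 (log2FC -0.10). Across this list the log2FC ranged from -0.23 to 0.31.

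**Figure D3:**
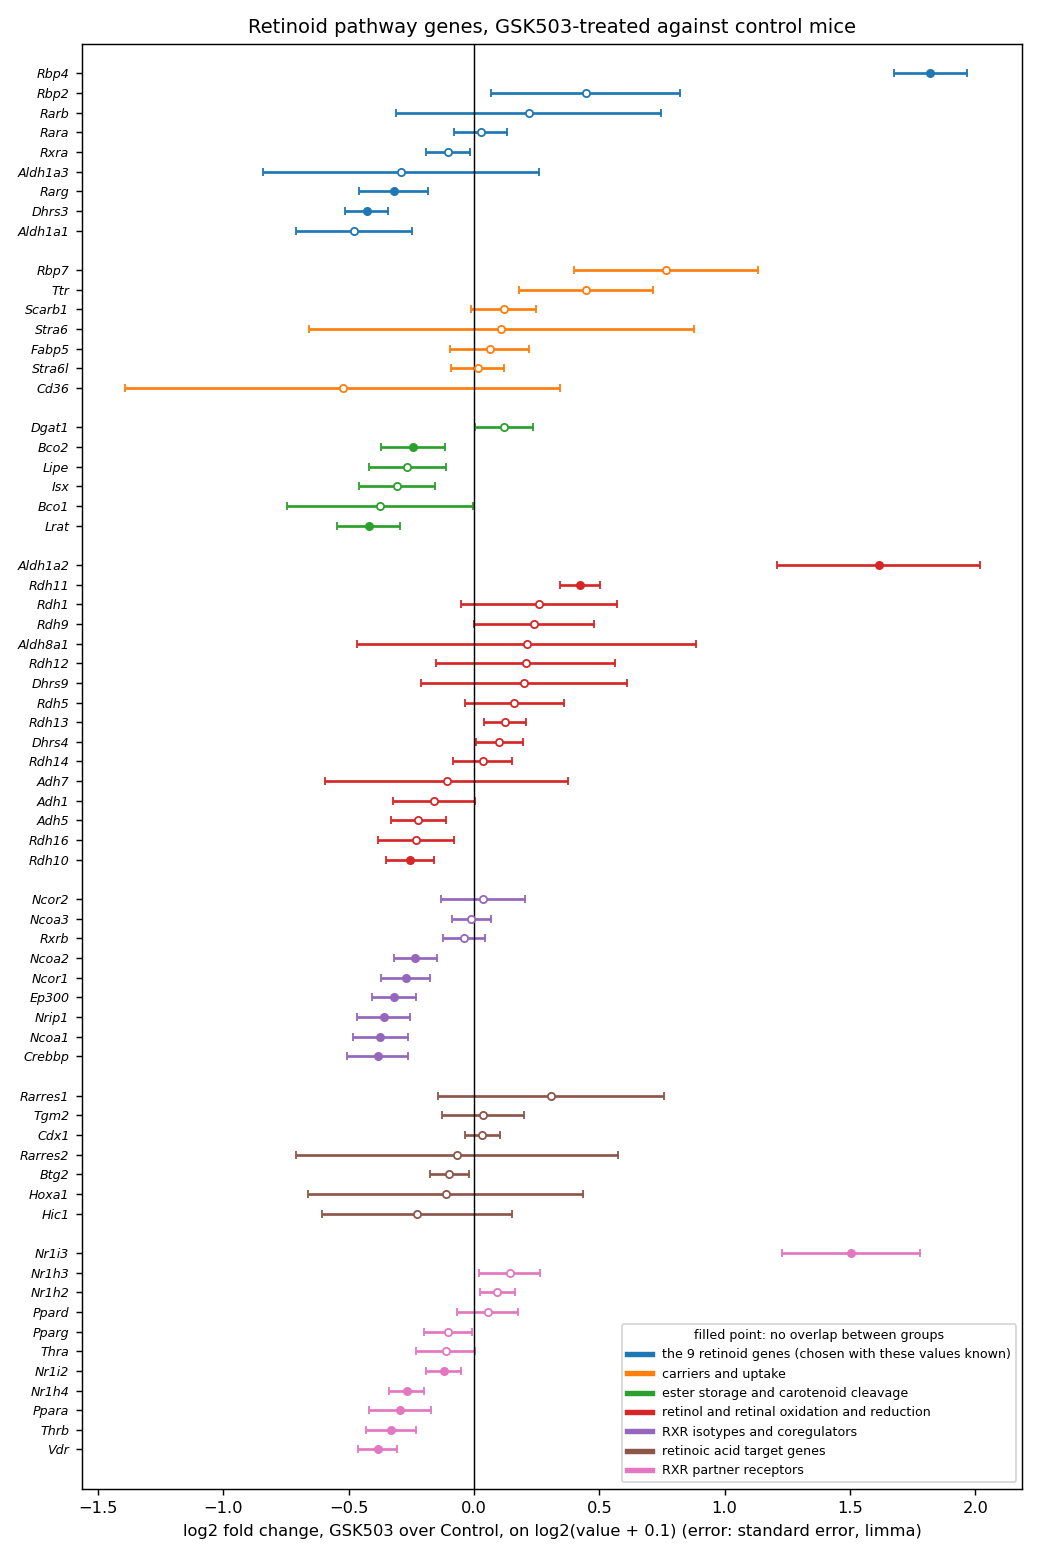
Points give the log2FC of each tested gene on the log2(value + 0.1) scale with its standard error, coloured by list, and filled points are genes whose 3 treated mice do not overlap with the 3 controls. Rbp4 (1.82), Aldh1a2 (1.61) and the RXR partner Nr1i3 (1.5) lie farthest to the right, and 6 of the 9 RXR isotypes and coregulators lie left of 0 as filled points.

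RXRα also pairs with other nuclear receptors, and 11 genes of such partners were tested. Of these, 0 were called by limma (and 0 by limma-voom) at an adjusted p below 0.05. By limma, 5 had an unadjusted p below 0.05 (1 higher, 4 lower), or 45.5% against 13.3% of all genes tested. This list too was chosen with earlier results of these data known, so the share is a description. Vdr, encoding the vitamin D receptor, was at 299, 306 and 342 across controls against 237, 237 and 251 across treated mice, which gave a log2FC of -0.38 ± 0.078 (standard error, with a limma adjusted p of 0.0666). Nr1i3, encoding the xenobiotic receptor CAR, was at 0.690, 0.990 and 0.677 across controls against 2.14, 2.38 and 2.65 across treated mice, which gave a log2FC of 1.5 ± 0.28 (standard error, with a limma adjusted p of 0.0505). Nr1h4, encoding the bile acid receptor FXR, had means of 151 and 125 (log2FC -0.27, limma adjusted p = 0.131). Ppard overlapped between the groups, with means of 111 and 114. Nr1i3 was called with a pseudocount of 1 and with robust variance estimation, while scaling by library size alone called Vdr, Nr1h4 and Nr1i3. Under that scaling the median log2FC of all genes was -0.12.

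Marker genes of other cell types differed between the libraries. The summed epithelial markers ranged from 8884 to 9757 in controls against 9418 to 10779 in treated mice. The summed enteroendocrine genes ranged from 199 to 247 in controls against 125 to 160 in treated mice. Of the 6 genes, 5 were wholly lower, as were 9.22% of all genes tested, and none of the 6 was at 0 in any mouse. Colonocyte sums spanned 3066 to 3210 in controls against 2211 to 5376 in treated mice. The highest sum, in GSK503-treated mouse 1, came mostly from the single gene Car1 (4019). B cell genes summed to 3.77 to 26.4 in controls against 1.11 to 3.52 in treated mice, whereas the sums of T cell, macrophage, fibroblast, smooth muscle and small intestinal enterocyte genes overlapped. The part of these cell types in the differences of the retinoid genes was not tested.

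**Figure D4:**
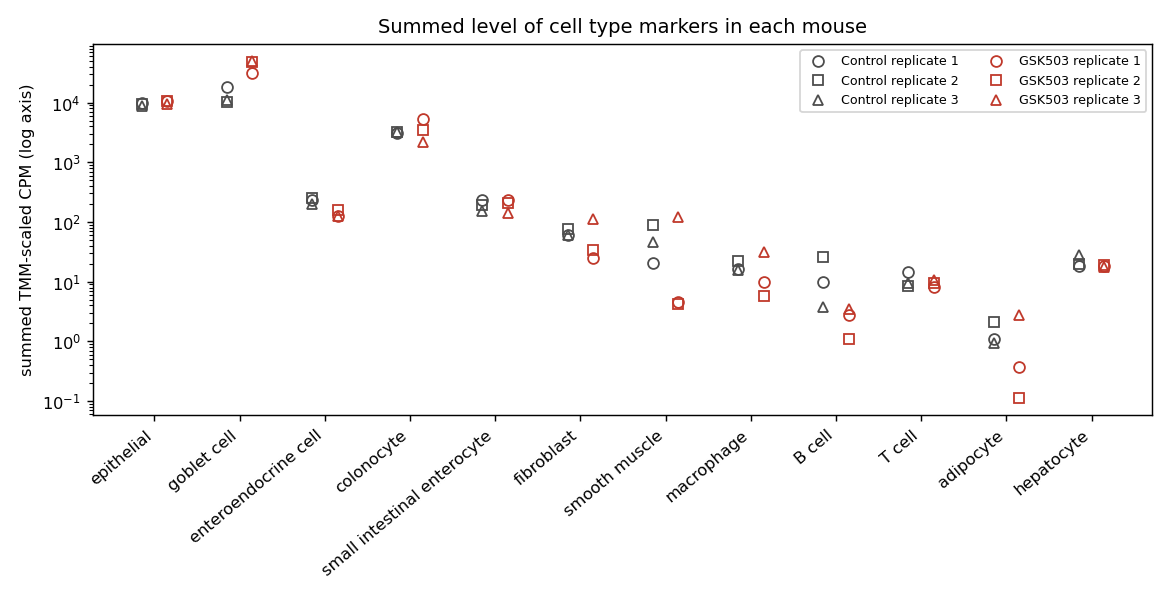
The summed TMM-scaled CPM of each cell type's marker genes is plotted on a log axis for each mouse, with control mice in grey, GSK503-treated mice in red and the shape giving the replicate number. Goblet cell sums are higher in all treated mice (31336 to 49874 against 10122 to 18316), enteroendocrine sums are lower, and GSK503-treated mouse 3 stands apart from the other treated mice in fibroblast and smooth muscle genes.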

How the data were processed

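Colonic crypt total RNA from 6 mice (3 per group, 1 library each) was sequenced as 76 bp paired-end reads with a stranded total RNA kit. Per the submitters' processing notes and the paper's methods, the authors aligned reads to GRCm39 with STAR 2.7.9a and estimated counts with RSEM 1.3.1, and they deposited a signal per gene, the estimated count scaled by edgeR's TMM method. No gene filter is given in the sources used here. The value of 1 count was recovered from each library's low values; between 75.2% and 78% of values were whole counts and 99.9% of low values were multiples of 0.01 count. Depth and floors describe counting error only. Columns of no sample numbered 0.

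limma 3.58.1 (R 4.3.3) was fitted to log2(value + 0.1) with an intensity trend and Benjamini-Hochberg adjustment over the 16670 genes with at least 0.1 in at least 3 mice; 1379 were left out. Nothing in the sources says more of how the replicates arose than 1 mouse each. An exact permutation test of 3 mice against 3 cannot give a p under 0.1, so none was used. The test was tested on simulated data. Standard errors and confidence intervals are limma's.

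The 9 genes and all lists were chosen with earlier results of these data known. Named genes were all 9, called genes of the other lists, the 3 most abundant genes of each list, Ezh2 and the sex-linked genes; others were picked after their values were seen. A deleted allele that all 6 mice share and 1 gene of the carrier list are not reported here. Symbols were matched to GENCODE vM39 (17212, 95.4%), whose canonical transcript lengths gave levels per kb. RefSeq promoter windows are on GRCm38.p6, gene positions on GRCm39. Python 3.11.15, pandas 2.3.3 and matplotlib 3.10.9 were used.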

Additional observations from a re-analysis of the deposited data

How the results depend on the processing

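As a description of genes chosen from this contrast, the log2FC of Rbp4 lay between 1.67 and 1.91 over the 15 alternatives, that of Dhrs3 between -0.54 (library size alone as the scaling) and -0.37, and that of Rarg between -0.43 and -0.23. Over all genes, 107 calls became 261 with library size alone (83 higher and 178 lower, or 31.8% higher against 77.6%), 33 with the replicate block, 16 without the intensity trend, and 28 to 216 when 1 mouse was left out, with 42 without control mouse 2, 44 without control mouse 3, 62 without GSK503-treated mouse 1, 28 without GSK503-treated mouse 2 and 216 without GSK503-treated mouse 3. Among other retinoid pathway genes, 0 calls became 1 with library size alone (Ep300), 1 with the filter of at least 1 in at least 3 mice (Rdh11) and 1 with robust empirical Bayes (Rdh11). Among RXR partner receptors, 0 became 3 with library size alone, 1 with a pseudocount of 1 and 1 with robust empirical Bayes. Other alternatives left these counts within 1.5 times, and the cause of these changes was not tested. Replicate numbers did not pair the mice (r of deviations 0.032, -0.126 and -0.119), so the block is only an alternative. Rarb (4 to 22.2 counts per mouse) and Cyp26b1 (0 to 27) had few counts and varied widely between mice. Their overlap between the groups does not show that a difference is absent.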
